A study of Mus musculus with 12 samples.

Results

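The core enzyme genes of glycolysis were followed through RNA and ribosome footprints in mouse embryonic fibroblasts (MEFs) that did or did not carry the tumor suppressor ARF. The 10 genes were taken by symbol as main enzymes of the pathway (Hk1, Hk2, Pfkl, Pfkp, Aldoa, Tpi1, Pgk1, Pgam1, Pkm and Ldha), out of 20661 genes counted in each of 12 libraries. All 10 were counted in every library. Each of 3 groups had 2 RNAseq and 2 ribosome profiling (RiboSeq) libraries. All 3 groups were fibroblast cultures of passage 4 transduced with a lentivirus. WT-shSCR cells were wild type with a scrambled hairpin, WT-shARF cells were wild type with a hairpin against ARF, and Arf-/--shSCR cells carried the Arf knockout together with the scrambled hairpin. The wild-type cells are labelled C57BL/6J (the study's methods name B6129SF2/J) and the knockout cells B6.129X1-Cdkn2atm1Cjs/KaiJ, a strain in which the first exon of Arf is replaced, so strain and genotype cannot be told apart. Puromycin selected the transduced cells in all groups, and the labels do not say whether replicates were separate cultures, so every p-value below measures the spread between these libraries, which may be technical.

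Glycolysis splits glucose into pyruvate in the cytosol. Hexokinase traps glucose in the cell as glucose 6-phosphate, phosphofructokinase commits the sugar to the pathway, aldolase and triose phosphate isomerase cut it into triose phosphates, and phosphoglycerate kinase and pyruvate kinase then make ATP. Lactate dehydrogenase turns pyruvate into lactate and returns NAD+ to the pathway. Proliferating fibroblasts run this pathway at a high rate, and many of its genes are known targets of HIF-1 and Myc, while p53 is known to hold several of them down. Which of these genes followed the loss of ARF in RNA, in footprints or in translational efficiency (TE, footprints over RNA) is the question the 3 groups address.

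RNAseq libraries held between 1578627 and 3989908 counts on coding sequences and RiboSeq libraries between 2544319 and 5157572. The label check was Cdkn2a, the gene that encodes both ARF and p16Ink4a in partly shared exons. Its RNA was 44.8 and 41.9 counts scaled to library size (CPM) in WT-shSCR, 644 and 668 in the libraries labelled WT-shARF, and 27.7 and 32.2 in Arf-/--shSCR. The counts of the libraries labelled WT-shARF therefore went against their label at this gene (log2 fold change 3.91 in RNA and 2.99 in footprints). These counts do not separate ARF from p16Ink4a, so they cannot show whether ARF itself was lowered. The study reports knockdown of ARF in MEFs by immunoblot. Each direction given below for that group is a direction of the libraries labelled WT-shARF. The 10 fibroblast markers were counted in every group, and summed to between 22700 and 26400 CPM in the RNA of WT-shSCR, between 24400 and 24500 in WT-shARF, and between 17400 and 18800 in Arf-/--shSCR, with footprints of between 49900 and 52400, between 56400 and 58100, and between 38700 and 39000 in the same order. Single fibroblast markers went both ways in Arf-/--shSCR against WT-shSCR. In RNA edgeR called 2 higher and 1 lower (all genes 7.93% in either direction). In footprints it called 2 higher (all genes 9.57%) and 4 lower (all genes 8.95%), at an adjusted p under 0.05. In WT-shARF against WT-shSCR it called 4 higher (all genes 327 of 10503) and 1 lower (all genes 4.17%) in RNA. In footprints of that comparison it called 5 higher (all genes 5.63%) and 1 lower (all genes 5.5%). In footprints of Arf-/--shSCR against WT-shARF it called 2 higher (all genes 3.93%) and 7 lower (all genes 470 of 10941). The 10 macrophage markers summed to between 445 and 473 CPM in the RNA of WT-shSCR, between 153 and 221 in WT-shARF, and between 47 and 57.5 in Arf-/--shSCR, and 9 epithelial and mesothelial markers summed to between 165 and 185 CPM in Arf-/--shSCR against at most 97.4 in the other RNAseq groups. The RNA of 6 skeletal muscle markers summed to between 96.7 and 107 CPM in WT-shSCR, between 47.2 and 47.8 in WT-shARF, and between 112 and 143 in Arf-/--shSCR (Myf5 at 0 in all groups). Only 1 of these 6 passed the filter in each comparison, and Myog, Myf5 and Ckm had no footprints in WT-shSCR and Arf-/--shSCR. The RNA of 6 neural markers, 2 or 3 of them tested per comparison, summed to between 786 and 808, 626 and 687, and 442 and 465 CPM in the order WT-shSCR, WT-shARF, Arf-/--shSCR. In Arf-/--shSCR against WT-shSCR 3 of them were tested. Of these, 1 was called lower in RNA (all genes 7.93% in either direction) and 1 in footprints (all genes 8.95%). The medians of the 3 log2 fold changes were 0.14 in RNA and 0.03 in footprints, so the sum did not give the direction of each marker. The part of these cells in the results below was not tested. In these bulk samples fewer cells of a type and less RNA per cell cannot be told apart.

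The glycolytic genes fell into a high and a low tier. Levels were compared as CPM per kilobase of coding sequence. In the RNA of WT-shSCR, Pkm led with 1786 ± 77.0 (SD, n = 2), followed by Aldoa with 902 ± 78.3, Ldha with 841 ± 15.7, Pgk1 with 819 ± 8.70, Pgam1 with 736 ± 31.0 and Tpi1 with 437 ± 38.1. These 6 enzymes act below phosphofructokinase and stood at or above the 98.2 percentile of 16094 detected genes. The ranges of Aldoa and Ldha overlapped, and the other neighbours in this order did not overlap over their 2 libraries. The 2 phosphofructokinases and 2 hexokinases stood far lower, with 83.9 ± 8.32 for Pfkl, 45.8 ± 0.408 for Hk1, 35.3 ± 2.18 for Pfkp and 23.7 ± 1.70 for Hk2 per kilobase. In footprints of WT-shSCR Pkm was again highest at 1939 ± 56.3, and Pgk1, Pgam1 and Ldha overlapped from one to the next between 954 and 1092. The last place passed from Hk2 in RNA to Pfkp in footprints, at 37.3 ± 5.50.

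**Figure D1:**
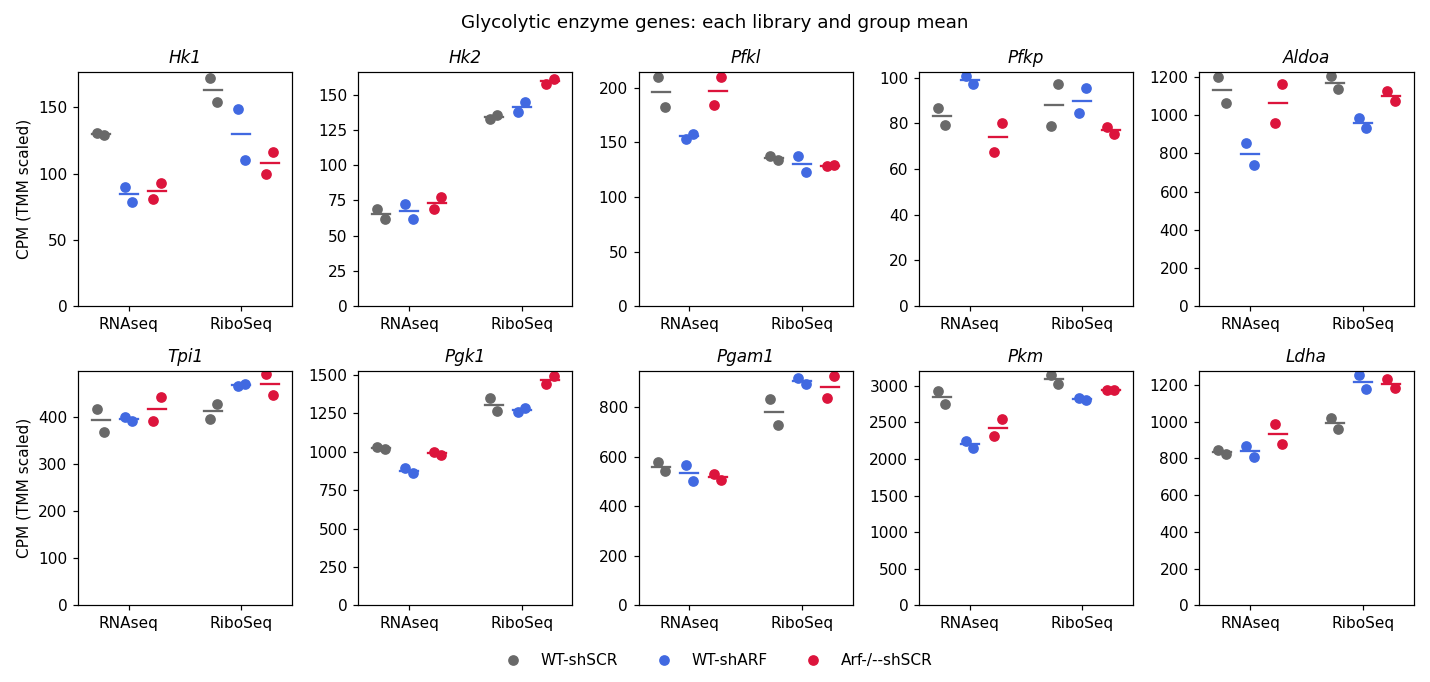
CPM (TMM scaled) of the 10 glycolytic enzyme genes in each of the 12 libraries, in RNAseq at the left and RiboSeq at the right of each panel. Points are single libraries, lines are group means, and colors mark the groups (WT-shSCR grey, WT-shARF blue, Arf-/--shSCR red). Hk1 stands lower in both other groups than in WT-shSCR in RNA, and Ldha footprints stand higher in both.

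The 10 genes together took 0.701 ± 0.0146% of the RNA counts in WT-shSCR, 0.633 ± 0.0103% in WT-shARF and 0.670 ± 0.00481% in Arf-/--shSCR (SD, n = 2 each). For footprints the shares were 0.818 ± 0.0199%, 0.813 ± 0.00587% and 0.864 ± 0.00834%. In each group the share was larger in footprints than in RNA, with no overlap between the assays. For a single library the exact binomial 95% interval was narrow, as in 0.690% with bounds of 0.677% and 0.703% for the shallowest one, and such intervals cover counting error only. Pkm alone supplied between 34.4% and 39.3% of the counts on the 10 genes.

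At most 2 of the 10 genes passed the test in a single comparison, and Hk1, Aldoa, Pgk1 and Ldha each passed in at least 1. With the quasi-likelihood test of edgeR, p-values adjusted by Benjamini-Hochberg and a threshold of 0.05, none of the 10 was called in the RNA of Arf-/--shSCR against WT-shSCR, where 7.93% of all tested genes were called (DESeq2 also called none, and 1 member had an unadjusted p under 0.05). In footprints of the same comparison Ldha was called higher and Hk1 lower, beside 9.57% and 8.95% of all genes. At an unadjusted p under 0.05, 5 members were higher and 1 lower there, beside 1623 and 1594 of 10737 genes. In WT-shARF against WT-shSCR, Aldoa and Hk1 were called lower in RNA (all genes 4.17%), and in footprints Ldha was called higher (all genes 5.63%) and Aldoa lower (all genes 5.5%). At an unadjusted p under 0.05, 4 members were lower in RNA, beside 1189 of 10503 genes. In footprints 3 were higher and 3 lower at that p, beside 1227 and 1193 of 10307 genes. The knockout and hairpin comparisons share the WT-shSCR libraries and are not independent. Set directly against each other, Arf-/--shSCR and WT-shARF differed in the footprints of Pgk1 (higher in the knockout, all genes called higher 3.93%). At an unadjusted p under 0.05, 2 members were higher in these footprints, beside 1152 of 10941 genes. Arf-/--shSCR and WT-shARF differed in the RNA of none of the 10 (all genes 2.57%, DESeq2 none, 3 members with an unadjusted p under 0.05). Without WT-shSCR replicate 1 or 2, edgeR called no gene of any kind in the footprints of Arf-/--shSCR against WT-shSCR, where 1359 and 1353 genes were higher and 1108 and 1200 lower at an unadjusted p under 0.05. Without WT-shARF replicate 1 or 2 it called 0 and 1 genes in the footprints of Arf-/--shSCR against WT-shARF, with 743 and 849 higher and 710 and 794 lower at that p. The median log2 fold change of the 10 in RNA was -0.07 in Arf-/--shSCR and -0.15 in WT-shARF, beside medians over all genes between -0.01 and 0. With 1 library left out the RNA median of the knockout ran from -0.12 (without WT-shSCR replicate 2) through -0.02 (without WT-shSCR replicate 1) to -0.0036 (without Arf-/--shSCR replicate 1), and that of WT-shARF was -0.09 without WT-shARF replicate 2. In footprints the medians were 0.06 and 0.00, and ran over all alternatives from 0.02 to 0.10 and from -0.02 to 0.06.

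**Figure D2:**
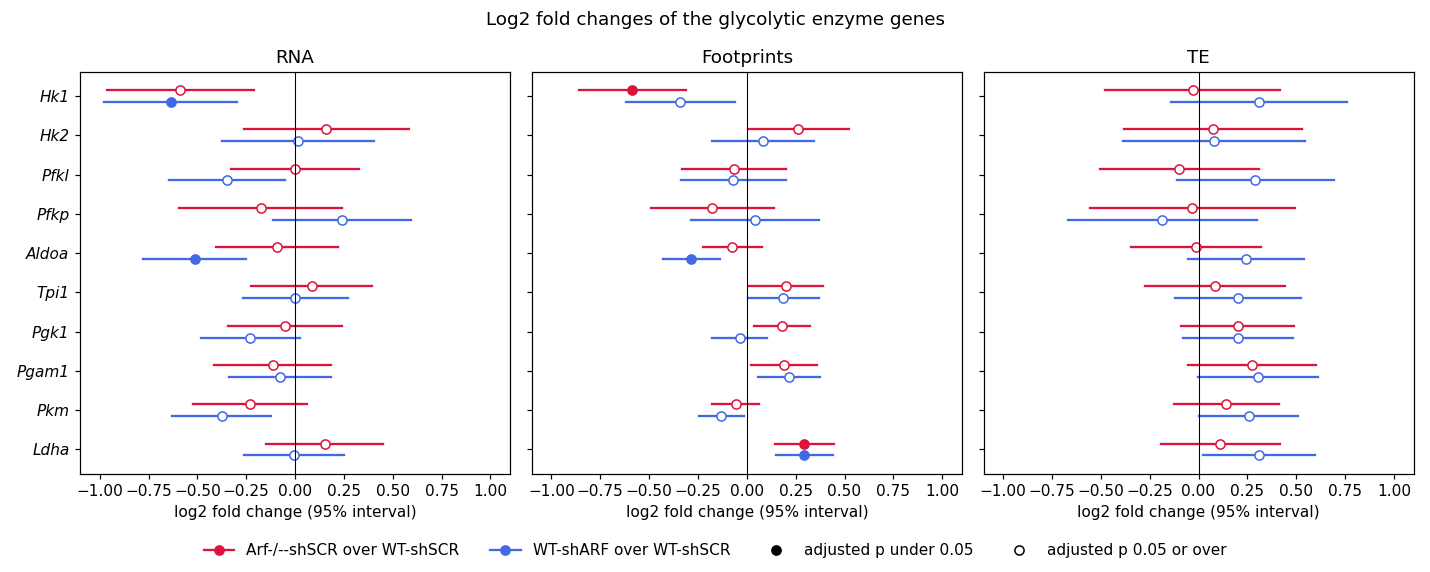
Log2 fold changes over WT-shSCR of the 10 genes in RNA, footprints and TE, for Arf-/--shSCR in red and WT-shARF in blue, with 95% intervals computed back from the edgeR F statistic (n = 2 libraries per group and assay). Filled points passed an adjusted p of 0.05. Hk1 lies left of 0 in RNA and footprints, Ldha footprints lie right of 0 in both groups by 0.29, and no TE point is filled.

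Hk1 carried the most negative change among the 10 genes. It encodes the widely expressed hexokinase that binds mitochondria (GRCm38 chr10:62268855-62379908, minus strand, coding sequence of 2835 nt). Its RNA was 131 and 129 CPM in WT-shSCR, 90.1 and 78.7 in WT-shARF, and 80.5 and 92.8 in Arf-/--shSCR, so both WT-shSCR libraries lay above all 4 others. The log2 fold change was -0.64 (SE 0.17, adjusted p = 0.0154) in WT-shARF and -0.59 (SE 0.18, adjusted p = 0.05002) in Arf-/--shSCR, the latter just past the threshold, and upper quartile factors, the stricter filter and the fit of all groups called it (adjusted p from 0.0345 to 0.0450). Hk1 footprints were 172 and 154 CPM in WT-shSCR, 149 and 111 in WT-shARF and 99.5 and 116 in Arf-/--shSCR. The fall in the knockout was -0.59 (SE 0.13, adjusted p = 0.00169), while the value in WT-shARF, -0.34 (SE 0.14), did not pass (adjusted p = 0.110), but was called without WT-shARF replicate 1 (-0.55, adjusted p = 0.0414). Between Arf-/--shSCR and WT-shARF the Hk1 footprints differed by -0.25 (95% interval -0.55 to 0.05), so the 2 groups were not shown to differ. The footprint call was lost without Arf-/--shSCR replicate 1 (adjusted p = 0.0688) or without WT-shSCR replicate 1 or 2 (0.195 and 0.133), and the RNA call in WT-shARF was lost without replicate 1 (0.0572) or 2 (0.284) of that group and in DESeq2 (0.0714).

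Hk2 encodes the inducible hexokinase of muscle, fat and many tumors (chr6:82725025-82774454, minus strand, 2751 nt). Its RNA stood at 68.5 and 61.9 CPM in WT-shSCR, 72.4 and 61.9 in WT-shARF, and 69.2 and 77.3 in Arf-/--shSCR. Its footprints were 132 and 136 CPM in WT-shSCR, 138 and 145 in WT-shARF and 158 and 161 in Arf-/--shSCR. The footprint values of the 3 groups did not overlap, and Arf-/--shSCR was 0.26 above WT-shSCR on the log2 scale (SE 0.13), which did not pass the adjustment (adjusted p = 0.157).

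Hk1 and Hk2 are alike in sequence, and reads of 17 to 34 nt must tell them apart for their values to be read side by side. No run of 28 bases of either coding sequence was found on either strand in a transcript of another gene of GENCODE M21. Their longest shared run is 27 bases, in one exon of each gene, at chr10:62275830-62275856 for Hk1 and chr6:82730917-82730943 for Hk2, both on the minus strand. How much of either sequence is shared in runs shorter than 28 bases was not measured. The windows of 30 bases around the longest shared run are shown, with the bases that differ in capitals:
Hk1: CagcaatgcctgctacatggaggagatgAA
Hk2: AagcaatgcctgctacatggaggagatgCG
Shorter reads that fall wholly in such a run cannot be placed, and the authors' counting leaves out reads with more than 1 alignment.

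Hk2 made up a larger part of the hexokinases in both other groups than in WT-shSCR, without overlap in either assay. As a share of the CPM per kilobase of the 5 hexokinase genes, Hk1 made up 61.3 ± 2.75% of the RNA in WT-shSCR, 52.7 ± 0.598% in WT-shARF and 51.6 ± 0.494% in Arf-/--shSCR (SD, n = 2). Hk2 went from 31.7 ± 0.563% to 43.1 ± 0.196% and 45.0 ± 0.561%, with no overlap between WT-shSCR and the others. In footprints Hk2 held 44.0 ± 1.97% in WT-shSCR, 52.4 ± 6.24% in WT-shARF and 60.4 ± 2.15% in Arf-/--shSCR, and it was the larger of the pair in both knockout libraries. These shares do not depend on the scaling of the libraries, and with 2 libraries against 2 an exact permutation test cannot go below p = 0.33, so they were not tested.

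**Figure D3:**
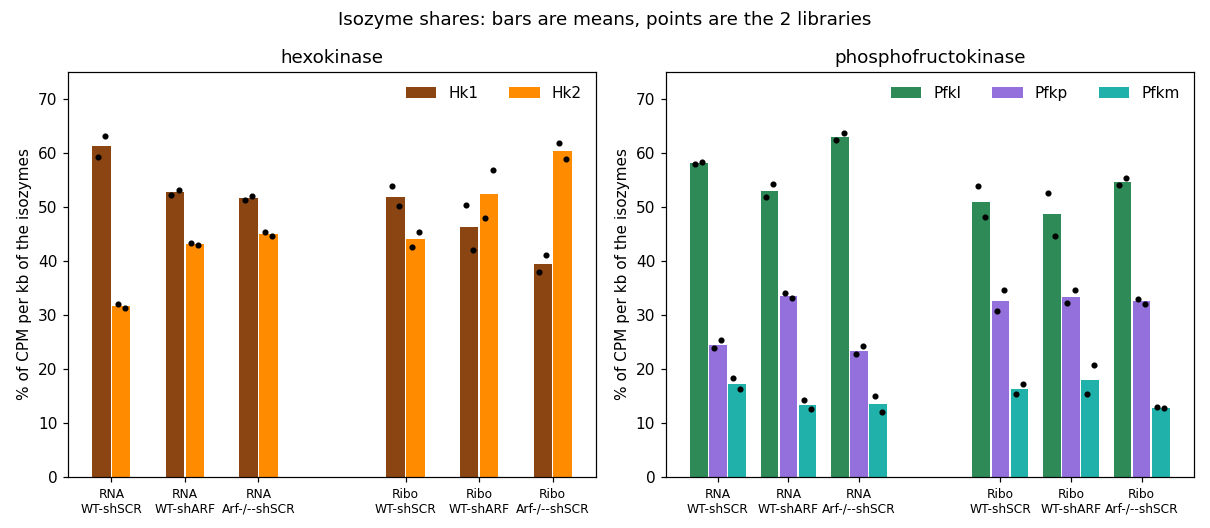
Shares of hexokinase genes (left) and phosphofructokinase genes (right) in percent of the summed CPM per kilobase of the isozymes of each step. Bars are means and points are the 2 libraries of each group. In footprints Hk2 exceeds Hk1 in both Arf-/--shSCR libraries, and Pfkl stays the largest phosphofructokinase throughout.

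The third hexokinase on the list, Hk3, is known from myeloid cells. It was counted at 11.1 and 12.6 CPM in the footprints of WT-shSCR, 5.05 and 2.90 in WT-shARF, and 0.192 and 0 in Arf-/--shSCR, where it had 1 count in both libraries together. It was called lower in the knockout in footprints (adjusted p = 3.91e-06) and RNA (adjusted p = 0.0446). The macrophage markers moved with it, from 564 to 584 CPM in the footprints of WT-shSCR to 176 to 215 in WT-shARF and 40 to 55.9 in Arf-/--shSCR, and their part in the result was not tested. The RNA call of Hk3 was lost in DESeq2, without Arf-/--shSCR replicate 2 and without either WT-shSCR library (adjusted p up to 0.516), and the footprint call was lost without either WT-shSCR library (up to 0.104).

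Neither phosphofructokinase member was called. Pfkl, the liver type (chr10:77986947-78010083), had RNA of 210 and 183 CPM in WT-shSCR, 153 and 158 in WT-shARF, and 184 and 210 in Arf-/--shSCR. Both WT-shARF libraries lay below the 4 others, at a log2 fold change of -0.35 (SE 0.15) with an adjusted p of 0.158. Its footprints lay between 122 and 138 CPM in all 6 libraries. Pfkp, the platelet type (chr13:6579768-6648777), had RNA of 86.6 and 79.3 CPM in WT-shSCR, 101 and 97.2 in WT-shARF and 67.4 and 80.3 in Arf-/--shSCR. The direct difference between Arf-/--shSCR and WT-shARF was -0.43 (SE 0.17, adjusted p = 0.222), and in footprints both Arf-/--shSCR libraries (78.3 and 75.4 CPM) lay below the other 4 (between 78.7 and 97.0 CPM), without passing the test. Pfkm, the muscle type and no member, gave the only called phosphofructokinase difference. Its footprints were 40.1 and 56.8 CPM in WT-shARF against 30.6 and 29.6 in Arf-/--shSCR (log2 fold change -0.70, SE 0.20, adjusted p = 0.0321). The call was lost in DESeq2 and without any 1 of the 4 libraries, with an adjusted p of up to 0.383 (without WT-shARF replicate 2).

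Aldoa was lower in the libraries labelled WT-shARF. It encodes fructose-bisphosphate aldolase A (chr7:126795234-126800751, minus strand, 1254 nt), and supplied at least 99.5% of the aldolase CPM per kilobase in every group. RNA was 1201 and 1062 CPM in WT-shSCR, 855 and 738 in WT-shARF and 960 and 1166 in Arf-/--shSCR. Both WT-shARF libraries were below the other 4, with a log2 fold change of -0.51 over WT-shSCR (SE 0.13, adjusted p = 0.0113). Footprints were 1204 and 1136 CPM in WT-shSCR, 988 and 934 in WT-shARF and 1127 and 1076 in Arf-/--shSCR, and again the WT-shARF pair was lowest, at -0.28 (SE 0.07, adjusted p = 0.00749). The direct difference of the knockout from WT-shARF was 0.20 in footprints (SE 0.06, adjusted p = 0.0535), which DESeq2, the unfiltered fit and the fit without Arf-/--shSCR replicate 2 called (adjusted p from 0.0226 to 0.0487). In RNA it was 0.41 (SE 0.13, adjusted p = 0.133), and 0.55 without Arf-/--shSCR replicate 1 (adjusted p = 0.00171). Both calls against WT-shSCR were lost without WT-shARF replicate 2 (adjusted p = 0.319 in RNA and 0.155 in footprints).

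Gpi1, the glucose phosphate isomerase that feeds the step before aldolase, had the same order of groups as Aldoa. It is on the list of other glycolytic enzymes and not among the 10. RNA was 655 and 635 CPM in WT-shSCR, 472 and 461 in WT-shARF, and 506 and 577 in Arf-/--shSCR. It was called lower in WT-shARF in RNA (-0.47, SE 0.13, adjusted p = 0.0181) and in footprints (-0.30, SE 0.08, adjusted p = 0.0144). The RNA call was lost without either WT-shARF library or WT-shSCR replicate 1 (adjusted p up to 0.249), and the footprint call without either WT-shARF library or WT-shSCR replicate 2 (up to 0.147).

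Tpi1 passed in no comparison. The isomerase of the triose phosphates (chr6:124810586-124814296, 897 nt) had RNA between 368 and 442 CPM in all 6 libraries. Its footprints were 395 and 427 CPM in WT-shSCR, 465 and 470 in WT-shARF and 490 and 446 in Arf-/--shSCR, above both WT-shSCR values in each of the other 4 libraries. The log2 fold changes of 0.19 (SE 0.09, adjusted p = 0.189) and 0.20 (SE 0.09, adjusted p = 0.138) did not pass.

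Pgk1 footprints were the one member value called between the knockout and the hairpin libraries. Pgk1 encodes phosphoglycerate kinase, the first ATP-making enzyme (chrX:106187100-106203699, 1251 nt). Footprints were 1350 and 1263 CPM in WT-shSCR, 1256 and 1288 in WT-shARF and 1440 and 1494 in Arf-/--shSCR, so the knockout pair was highest. Arf-/--shSCR exceeded WT-shARF by 0.21 (SE 0.06, adjusted p = 0.0258) and WT-shSCR by 0.18 (SE 0.07, adjusted p = 0.0748), and the latter was called in DESeq2 (adjusted p = 0.0445) and without the filter (0.0233). The call against WT-shARF was lost without Arf-/--shSCR replicate 2 (adjusted p = 0.110), without WT-shARF replicate 1 or 2 (0.357 and 0.308) and in the fit of all groups (0.0518). In RNA, with 1032 and 1016, 896 and 860, and 997 and 981 CPM in the same order of groups, no comparison passed.

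Pgam1, the phosphoglycerate mutase of most tissues (chr19:41911923-41918660, 762 nt), had RNA between 504 and 577 CPM in all 6 libraries. Footprints were 832 and 727 CPM in WT-shSCR, 918 and 894 in WT-shARF and 839 and 925 in Arf-/--shSCR. The change in WT-shARF was 0.22 (SE 0.08, adjusted p = 0.0693), and without WT-shSCR replicate 1 it was 0.32 and was called (adjusted p = 0.00338). In Arf-/--shSCR the value was 0.19 (SE 0.08, adjusted p = 0.116), and it was called without the filter (adjusted p = 0.0477). Every run of 28 bases of the Pgk1 and Pgam1 coding sequences also stands in a transcript of another annotated gene, as do 72.5% for Pkm, 67.3% for Ldha, 46.7% for Aldoa and 36.9% for Tpi1. The types of these other genes were not recorded. How the alignment split reads among genes that share such runs is not shown by the counts, and the values of these 6 enzyme genes are uncertain to that degree. Eno1, the enolase gene that joins Pgam1 to Pkm, was listed at 0 in all 12 libraries, and 90.5% of its runs are shared.

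Pkm, the most counted member, encodes the pyruvate kinases M1 and M2, which the counts on the whole gene do not separate (chr9:59656368-59679375, 1593 nt). RNA was 2932 and 2758 CPM in WT-shSCR, 2246 and 2155 in WT-shARF, and 2310 and 2542 in Arf-/--shSCR. Both WT-shSCR libraries exceeded the other 4. The log2 fold change was -0.38 (SE 0.13, adjusted p = 0.0626) in WT-shARF and -0.23 (SE 0.14, adjusted p = 0.349) in Arf-/--shSCR. The value in WT-shARF was called in DESeq2 (adjusted p = 0.0285), without the filter (0.0167) and without WT-shSCR replicate 2 (0.0138). Footprints moved less, from 3152 and 3026 CPM in WT-shSCR to 2827 and 2806 in WT-shARF and 2940 and 2946 in Arf-/--shSCR, at -0.13 (SE 0.06, adjusted p = 0.141) and -0.06 (SE 0.06, adjusted p = 0.567).

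Ldha was the one member called higher in the footprints of both groups. It encodes the A subunit of lactate dehydrogenase (chr7:46841475-46855627, plus strand, 996 nt) and supplied between 95.7% and 97.2% of the CPM per kilobase of its family in each group. Footprints were 1022 and 962 CPM in WT-shSCR, 1254 and 1176 in WT-shARF, and 1231 and 1182 in Arf-/--shSCR. Both WT-shSCR libraries lay below all others. The log2 fold change was 0.29 (SE 0.07, adjusted p = 0.00426) in Arf-/--shSCR and 0.29 (SE 0.07, adjusted p = 0.00525) in WT-shARF, and the direct difference between the 2 was -0.01 (95% interval -0.13 to 0.12). Ldha RNA was 849 and 827 CPM in WT-shSCR, 868 and 809 in WT-shARF and 987 and 878 in Arf-/--shSCR. These RNA values overlapped between WT-shSCR and WT-shARF, with log2 fold changes of 0.15 (95% interval -0.15 to 0.45) in the knockout and -0.01 (-0.26 to 0.25) in WT-shARF. The footprint call in Arf-/--shSCR was lost without its replicate 1 (adjusted p = 0.0562) or without WT-shSCR replicate 1 or 2 (0.122 and 0.162), and the call in WT-shARF was lost without its replicate 1 (0.121).

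The TE of the 10 genes differed more between genes than between groups. TE was computed as footprint CPM over RNA CPM of the libraries with the same number, and percentiles are among 8223 genes in WT-shSCR. Same-numbered RNAseq and RiboSeq libraries did not deviate together (r between 0.0423 and 0.0843). The SDs and overlaps of TE below therefore rest on an arbitrary pairing. Hk2 had the highest level, at 2.06 ± 0.182 in WT-shSCR (SD, n = 2; 91.3 percentile), 2.12 ± 0.309 in WT-shARF and 2.18 ± 0.139 in Arf-/--shSCR. Pfkl had the lowest, at 0.695 ± 0.0558 (26.1 percentile), 0.836 ± 0.0861 and 0.655 ± 0.0561. Pgam1 was next to Hk2 in WT-shSCR at 1.39 ± 0.0744, followed by Pgk1 at 1.28 ± 0.0469, Hk1 at 1.26 ± 0.0866, which overlapped both its neighbours, and Ldha at 1.18 ± 0.0288. Pkm, Pfkp, Tpi1 and Aldoa had means between 1.04 and 1.09, and each overlapped the next. No TE change of a member was called by edgeR or DESeq2 (which gave no adjusted p for some values of Hk1, Hk2, Pfkl and Pfkp) in any of the 3 comparisons, where edgeR called 0.194%, 0.0354% and 0.043% of all genes. In WT-shARF against WT-shSCR, 9 of the 10 log2 TE changes were above 0 (50.7% of all genes), with a median of 0.25 against 0.01 over all genes, and Ldha (0.31, SE 0.14) and Pkm (0.26, SE 0.13) had unadjusted p-values of 0.0341 and 0.0485. In Arf-/--shSCR against WT-shSCR the median was 0.08, 6 of 10 were above 0 (46.6% of all genes), and none had an unadjusted p under 0.05. The number above 0 was 8 under RLE factors, 9 under upper quartile factors, in DESeq2 and in the fit of all groups, and 10 without a filter, and the median was -0.02 without Arf-/--shSCR replicate 1 and 0.18 and 0.17 without replicate 2 of Arf-/--shSCR or of WT-shSCR. Between Arf-/--shSCR and WT-shARF the median was -0.07, turning to 0.04 without Arf-/--shSCR replicate 2, and again none had an unadjusted p under 0.05.

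**Figure D4:**
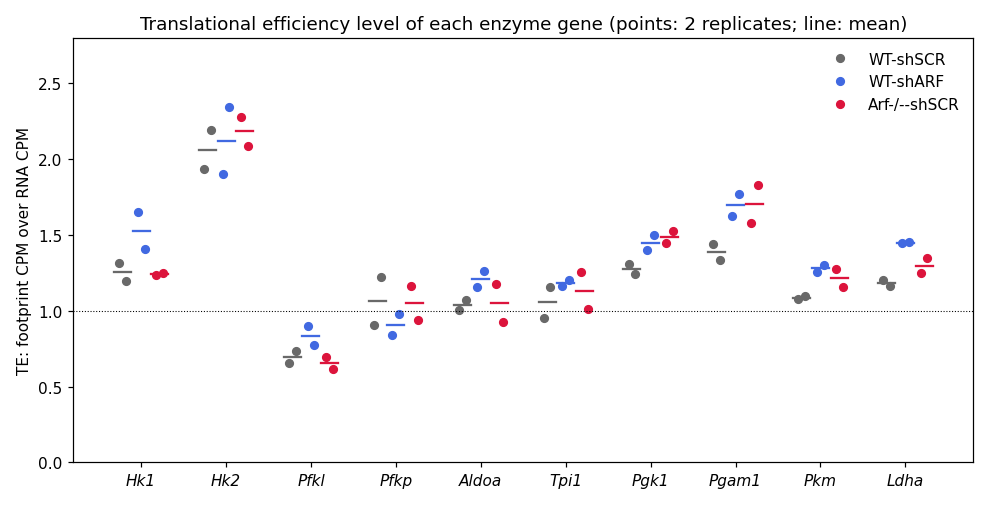
TE (footprint CPM over RNA CPM) of the 10 genes in the 3 groups (WT-shSCR grey, WT-shARF blue, Arf-/--shSCR red). Points are the 2 replicates, each an arbitrary pairing of RNAseq and RiboSeq libraries by number. Short lines are means, and the dotted line marks equal footprint and RNA CPM. Hk2 stands above 1.9 in all 6 values and Pfkl below 0.9.

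The 10 genes had no single profile over the 12 libraries. Each gene was centred within its assay on the log2 scale and compared with the mean profile of the 10. That mean contains each member itself, so the r of a member is not independent of it. Pkm (Pearson's r = 0.878), Aldoa (0.865) and Pfkl (0.815) followed the mean closely, Ldha (0.0243) and Pfkp (-0.274) did not. The 5351 genes with a mean of at least 20 CPM in each assay included the 10 members. Of those outside every list, the most like the mean profile were Fam129a (r = 0.941), Wash1 (0.927), Senp3 (0.91), Psmb1 (0.892) and Ift46 (0.88). These values describe 12 libraries that share 3 groups and 2 assays. The RNA of Fam129a (141 ± 70.2 CPM, SD, n = 2), Wash1 (40010 ± 9768) and Ift46 (5504 ± 1850) varied widely within WT-shSCR. Senp3 (305 ± 57.7) and Psmb1 (339 ± 44.6) varied less there. Footprints of Wash1 and Ift46 in WT-shSCR were far below their RNA, at 1282 ± 181 and 35.9 ± 1.12 CPM. The part of this spread within groups in the r values was not tested.

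Around the pathway, the calls included the transporters that carry lactate across the cell membrane. Of 11 glucose and lactate transporter genes, 7 were tested in the RNA of Arf-/--shSCR against WT-shSCR. There 2 were called higher and 2 lower (all genes 7.93% in either direction). Slc16a1, which encodes the monocarboxylate transporter MCT1, had RNA of 21.1 and 17.4 CPM in WT-shSCR, 27.9 and 35.6 in WT-shARF, and 41.9 and 37.4 in Arf-/--shSCR (log2 fold change 1.02, SE 0.27, adjusted p = 0.0264 in the knockout). Its footprints rose by 0.66 (SE 0.19, adjusted p = 0.0123). Slc16a3, which encodes MCT4, had RNA of 107 and 79.3 CPM in WT-shSCR against 138 and 199 in Arf-/--shSCR (0.84, SE 0.20, adjusted p = 0.0138), and its footprints rose by 0.43 (SE 0.15, adjusted p = 0.0379). Bsg encodes basigin, the chaperone that brings both transporters to the membrane, and went the other way. Bsg RNA was 617 and 570 CPM in WT-shSCR, 383 and 368 in WT-shARF, and 372 and 383 in Arf-/--shSCR, a log2 fold change of -0.67 (SE 0.13, adjusted p = 0.000977) in WT-shARF and -0.65 (SE 0.14, adjusted p = 0.00709) in the knockout. Bsg footprints fell by 0.49 (SE 0.09, adjusted p = 0.000193) and by 0.46 (SE 0.09, adjusted p = 0.000406). The call of Bsg footprints in WT-shARF held without each library in turn. Its RNA call in WT-shARF was lost without WT-shARF replicate 2 (adjusted p = 0.0561), and its RNA and footprint calls in the knockout were lost without either WT-shSCR library (up to 0.126 and 0.191). The RNA call of Slc16a1 was lost in DESeq2 (0.180), without Arf-/--shSCR replicate 1 and without either WT-shSCR library, and its footprint call was lost in DESeq2 and without any 1 of the 4 libraries (up to 0.161). The RNA call of Slc16a3 was lost without Arf-/--shSCR replicate 2 and without either WT-shSCR library (up to 0.241), and its footprint call was lost in DESeq2, under upper quartile factors and without any 1 of the 4 libraries (up to 0.261).

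Glucose transporters were called in single comparisons. Slc2a1, the main glucose transporter GLUT1, had footprints between 176 and 205 CPM in all 6 libraries and passed in no comparison. Slc2a8 (GLUT8), a transporter of inner membranes, was called lower in the knockout in RNA (-1.66, SE 0.50, adjusted p = 0.0494) and footprints (-1.48, SE 0.48, adjusted p = 0.0281), at levels of at most 21.3 CPM. Slc2a3 (GLUT3) footprints were 7.21 and 5.12 CPM in WT-shSCR and 20.2 and 12.6 in WT-shARF (1.38, SE 0.45, adjusted p = 0.0417). Both Slc2a8 calls were lost in DESeq2 and without any 1 of the 4 libraries (adjusted p up to 0.467), and the Slc2a3 call, for which DESeq2 gave no adjusted p, was lost without WT-shARF replicate 1 or WT-shSCR replicate 2 (up to 0.419).

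**Figure D5:**
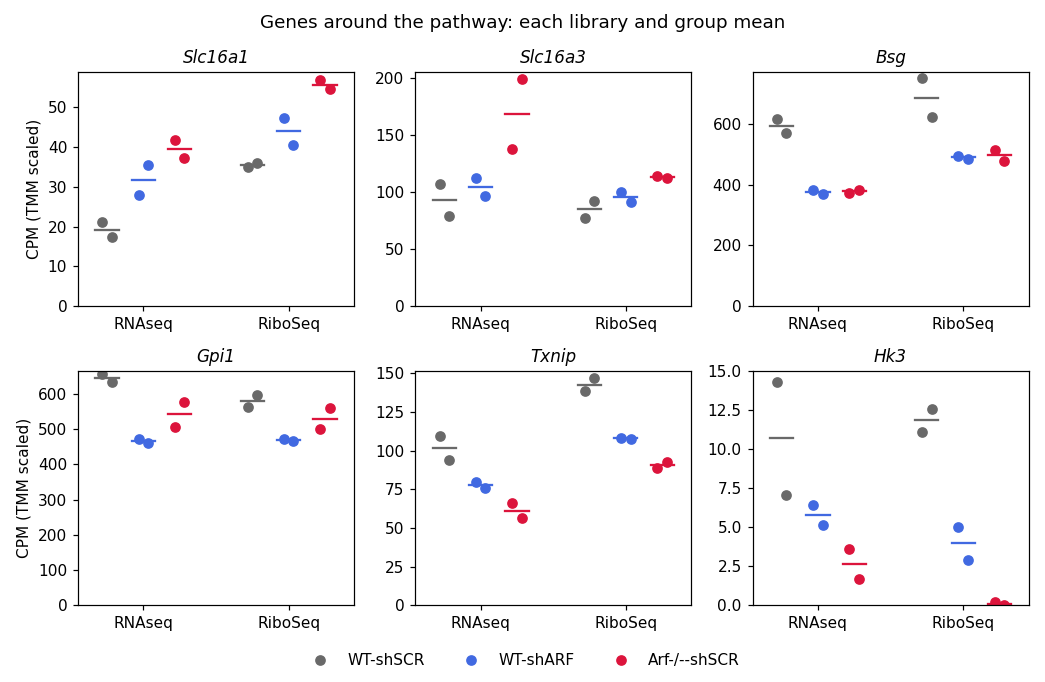
CPM (TMM scaled) of Slc16a1, Slc16a3, Bsg, Gpi1, Txnip and Hk3 in each library, drawn as for the 10 glycolytic genes. Bsg lies lower and Slc16a1 higher in both other groups than in WT-shSCR in RNA, and Hk3 footprints are near 0 in Arf-/--shSCR.

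The other gene lists held single calls. Of 17 other glycolytic enzymes and isozymes, between 7 and 9 were tested per comparison, with 8 calls in RNA and footprints. These were calls of Hk3, Gpi1 and Pfkm, of Aldoc (lower in the footprints of Arf-/--shSCR) and of Eno2 (lower in the footprints of WT-shARF). Aldoc and Eno2 had footprint levels of at most 5.91 CPM. Over all genes, 7.93% were called in the RNA of Arf-/--shSCR against WT-shSCR, and 4.17% lower in that of WT-shARF. In footprints 8.95% and 5.5% were called lower in these groups, and 470 of 10941 genes were called lower in Arf-/--shSCR than in WT-shARF. In the pentose phosphate pathway, which branches off at glucose 6-phosphate, 3 of 8 genes were called lower in the footprints of Arf-/--shSCR (all genes called lower 8.95%), and DESeq2 called 1 of the list, Pgd. The 3 were Pgd (-0.33, SE 0.10, adjusted p = 0.0177), Pgls (-0.48, SE 0.15, adjusted p = 0.0219) and Tkt (-0.25, SE 0.09, adjusted p = 0.0479), and Pgls and Tkt were also lower there than in WT-shARF. Taldo1, the transaldolase, was called lower in the RNA of WT-shARF (-0.53, SE 0.14, adjusted p = 0.0139). Among 14 genes of pyruvate entry to mitochondria, the 2 subunits of pyruvate dehydrogenase E1 went apart in the footprints of WT-shARF, Pdha1 by 0.43 (SE 0.11, adjusted p = 0.00889) and Pdhb by -0.62 (SE 0.17, adjusted p = 0.0120), and Pdk4, a kinase that inhibits the complex, was called lower (-1.14, SE 0.32, adjusted p = 0.016). Pdha1 footprints were also called higher in the knockout (0.35, SE 0.12, adjusted p = 0.0350).

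Of 14 regulators of glycolytic genes, 12 or 13 were tested per comparison, with 5 calls in 6 comparisons of RNA and footprints. Over all genes, 7.93% were called in the RNA of Arf-/--shSCR against WT-shSCR, and in its footprints 9.57% higher and 8.95% lower. In footprints 5.5% were called lower in WT-shARF against WT-shSCR, and 3.93% higher in Arf-/--shSCR against WT-shARF. Txnip, which lowers glucose uptake, had footprints of 139 and 147 CPM in WT-shSCR, 108 and 108 in WT-shARF, and 88.7 and 93.0 in Arf-/--shSCR, with no overlap between groups. Its footprints were called lower in the knockout (-0.64, SE 0.14, adjusted p = 0.000836) and in WT-shARF (-0.40, SE 0.13, adjusted p = 0.0475). Txnip RNA was called lower in the knockout (-0.74, SE 0.20, adjusted p = 0.0267). Trp53 footprints were called higher in the knockout (0.42, SE 0.11, adjusted p = 0.00396). Hif1a footprints were 161 and 169 CPM in WT-shARF and 232 and 214 in Arf-/--shSCR (0.44, SE 0.10, adjusted p = 0.0105). Myc passed in no comparison. Of the hypoxia-inducible genes outside glycolysis, 10 of 12 were tested in the footprints of Arf-/--shSCR against WT-shSCR, where Adm was called higher (all genes 9.57%) and Bnip3l, Ero1l and P4ha2 lower (all genes 8.95%), and DESeq2 called 1 of the list. The 5 fructose-2,6-bisphosphate enzymes and the 4 genes of gluconeogenesis and glycerol 3-phosphate that were tested, out of 8, had no call in RNA or footprints in edgeR or DESeq2, with 1 unadjusted p under 0.05 in each list over 6 comparisons. Nearly all of the 42 calls of genes on these lists were lost when some single library was left out. Such a fit leaves 1 library in a group. In the footprints of Arf-/--shSCR, leaving out a library of the group compared with it lost the call of nearly every gene. Those losses therefore do not mark single genes. Of the 42 calls, 24 were lost under an alternative that kept all libraries. DESeq2 lost 23, among them the knockout footprints of Pgls, Tkt, Pdha1, Adm, Bnip3l and Ero1l, Pdk4 footprints in WT-shARF, Txnip RNA in the knockout and Txnip footprints in WT-shARF, and gave no adjusted p for 2. None of the 42 changed direction under any alternative. No gene of these lists was called in TE by either tool.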

How the data were processed

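RNA and ribosome footprints (RNase T1) were sequenced from MEFs of 3 groups with 2 replicates each. Deposited are raw counts by gene symbol. To make them, the authors clipped adapters, split the barcodes, took off the molecular identifiers, discarded rRNA and noncoding RNA reads, aligned what was left to mm10 and counted it on coding sequences. Per the submitters' processing notes the tools were UMI-tools, cutadapt, Bowtie2, TopHat and HTSeq. No removal of duplicates is named, and between 79.22% and 81.38% of RNAseq and 46.34% and 52.92% of RiboSeq tallies were alignments that were not unique and were left out by the counting. These tally rows were dropped.

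TMM factors were computed by edgeR 4.0.16 (R 4.3.3), which kept genes by filterByExpr and tested RNA and footprints over 4 libraries and TE as the interaction of assay and group over 8. P-values were adjusted over all tested genes. The study used DESeq2 (here 1.42.0, an alternative). The fits were run on simulated counts with a common dispersion for all genes and larger changes than those called in members. That run therefore does not bear on the member calls. CPM used TMM factors over the libraries of an assay, with an offset of 0.5 on the log2 scale for profiles. Coding lengths and positions came from GENCODE M21 (GRCm38). Replicates differed by more than counting noise (chi-square per gene from 3.77 to 6.97). The 10 genes and all lists were chosen with earlier results of these data known. Genes of the other lists were named where called in any of 9 comparisons, at most 4 with the smallest p per list and assay; Slc2a1 and Myc were added after their values were seen.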

Additional observations from a re-analysis of the deposited data

Results flagged for a closer look

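The following footprint values differed between Arf-/--shSCR and the libraries labelled WT-shARF in edgeR's quasi-likelihood test (adjusted p under 0.05), which is the test of the difference between their changes over WT-shSCR. Among the 10 enzymes this was Pgk1 (log2 difference 0.21). On the other lists, Hif1a was higher in Arf-/--shSCR by 0.44, and Hk3 (-4.97), Pfkm (-0.70), Pgls (-0.44), Tkt (-0.28) and P4ha1 (-0.27) were lower. Over all genes, 430 of 10941 were called higher and 470 lower in this comparison. DESeq2 did not call the differences of Hk3, Pfkm, Pgls and P4ha1, and the fit of all groups did not call those of Pgk1 and Pgls. The value of Hk3 is a fitted one that rests on 1 count in the footprints of Arf-/--shSCR and depends on the prior count.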

How the results depend on the processing

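Of the 7 called member values, each kept its direction under all 12 alternatives, and 16 of 84 such values missed the threshold, 14 of them with 1 library left out. Called members numbered 1 in place of 0 in the RNA of Arf-/--shSCR under upper quartile factors, the filter of 10 counts and the fit of all groups. In its footprints they numbered 4 in place of 2 without a filter, 3 in DESeq2, and between 0 and 2 with 1 library left out, while the median TE change was 0.21 without a filter. In WT-shARF between 0 and 3 were called in RNA and between 1 and 3 in footprints with 1 library left out. Between Arf-/--shSCR and WT-shARF, RNA gave 1 call without a filter and from 0 to 1 with 1 library left out, and footprints gave 2 in DESeq2, without a filter and with the replicate block, 0 in the fit of all groups and from 0 to 1 with 1 library left out. Over all genes, edgeR called 845, 765 and 273 in RNA (knockout, WT-shARF, direct comparison), DESeq2 414, 291 and 188, edgeR 1988, 1147 and 900 in footprints, DESeq2 1153, 691 and 553, and edgeR 22, 4 and 5 in TE, DESeq2 79, 55 and 27. Over all alternatives the counts ran from 222 to 1057, 274 to 1011 and 6 to 798 in RNA, 0 to 2075, 614 to 1376 and 0 to 1109 in footprints, and 6 to 123, 0 to 55 and 1 to 125 in TE. The lowest of each range came with 1 library left out, except in the TE of WT-shARF (fit of all groups). Same-numbered libraries did not deviate together (r between -0.139 and 0.0565 over groups), so the numbers do not pair the samples. The replicate block gave 4 called members in place of 2 in the footprints of WT-shARF, and 3 in place of 2 in its RNA, where Pkm was added (adjusted p = 0.00277). Crossing the numbers of Arf-/--shSCR, chosen after seeing the data, gave 1 called member in the RNA of both comparisons with it (1438 and 832 genes called). Without a TMM factor the summed level of the 10 genes was 6334 CPM in the RNA of WT-shARF in place of 6049 and 8634 CPM in the footprints of Arf-/--shSCR, or 8584 with RLE factors, in place of 8541. Without the 10 most counted genes in the total, the RNA shares of the groups (WT-shSCR, then WT-shARF, then Arf-/--shSCR) were 0.801%, 0.704% and 0.759%, and the footprint shares 0.943%, 0.939% and 0.976%. Without ribosomal protein genes they were 0.752%, 0.680% and 0.722%, and 0.858%, 0.863% and 0.926%. The cause of these differences was not tested, except that a smaller total raises a share.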
